A study of Mus musculus with 14 samples.

Results

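Gene expression was compared between 4 CT26 tumors that had not responded to anti-PD-1 and 5 CT26 tumors from mice given control IgG. The tumors were chosen by their labels, and they are 9 of the 14 tumors of the series. CT26 is a mouse colorectal cancer line. Here, barcoded CT26 cells had been transplanted under the skin of both flanks of female Balb/c mice (strain BALBc in the labels), and repeated doses of control IgG or anti-PD-1 had been given once tumors were palpable. Both groups therefore share the host strain, the barcoded line and the site, and they differ in the antibody and in the label of no response. The paper set this label by tumor size after treatment, relative to the median of the control IgG tumors. Treated tumors above a bound near that median were called non-responders, and those well below it responders. Non-responders were thus selected for a size not far below that of the controls or larger. The part of tumor size in the results was not tested. The non-responders were tumors 29L, 32R, 33L and 33R from 3 mice, and the control IgG tumors were 14L, 14R, 16R, 17R and 20R from 4 mice. The number in a name was read as the mouse and the letter as the left or right flank, so that 33L and 33R, as well as 14L and 14R, were taken to come from 1 mouse each. The other 5 tumors (24L, 26R, 30L, 30R and 35L) were anti-PD-1 responders. They entered the same fit, and their values are given beside those of the non-responders.

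PD-1 is an inhibitory receptor on activated T cells. When its ligand PD-L1, on tumor or myeloid cells, engages PD-1, signaling through the T cell receptor is damped, and an antibody against PD-1 removes this brake. T cells released in this way make interferon gamma, which induces chemokines such as CXCL9 and raises antigen presentation, and they kill through granzymes and perforin. Tumor macrophages take on many states. One of them, called alternative activation, is induced by IL-4 and IL-13 through the transcription factor STAT6, and is marked in mice by Retnla, Arg1 and Mrc1.

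Each tumor had between 34266743 and 48481461 expected counts, with medians of 37929856 for the non-responders and 42110156 for the control IgG tumors. An expected count is an estimate of the fragments that came from a gene. Of 53801 genes, 16287 had enough counts to be tested. Levels are given as CPM, which are counts scaled to the size of each library with TMM factors, and a positive log2 fold change means a higher value in the non-responders. The mean fragment length, as implied by the effective gene lengths, was 277.5 to 287.8 bases in non-responders, 268.7 to 277.7 in control IgG tumors and 269.5 to 277.0 in responders. The highest value, 287.8, was that of tumor 33R, which also had the lowest TMM factor (0.9175). The part of fragment length in the results was not tested. A fit with an offset for gene length also gave 0 genes with an adjusted p under 0.05. In some libraries, the mean of a gene list lay away from the rest of the group, and values without 14R or 33R are given where they bear on a result. Tumor 14R (control IgG) had a mean log2 CPM of -1.79 over 18 skin epidermis genes, against 3.79 to 4.67 in the other control IgG tumors. Tumor 33R (non-responder) had a mean log2 CPM of 10.4 over 81 cytosolic ribosomal protein genes, against 9.67 to 9.86 in the other non-responders.

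The non-responders were close to the control IgG tumors over the whole transcriptome. No gene passed an adjusted p under 0.05 with edgeR's quasi-likelihood test, which is 0% of the genes tested. With an unadjusted p under 0.05 there were 758 genes (4.65%), of which 478 (2.93%) were higher and 280 (1.72%) were lower in non-responders. This split depends on the scale, since 179 of the 839 genes at this threshold were higher on TPM. DESeq2 called 16 genes and limma-voom called 0. The groups did not overlap for 203 genes (1.25%). In the same fit, 2147 genes (13.2%) passed between responders and control IgG tumors, 1284 of them higher and 863 lower, and 1612 genes (9.9%) passed between responders and non-responders. Between responders and non-responders, 827 genes (5.08%) were higher and 785 (4.82%) lower in responders, and the total of 1612 was 615 without 32R, 793 without 33R, 569 without 24L and 686 without 30R. The responder against control IgG comparison shares its control IgG tumors with the non-responder comparison.

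The size of the differences can be bounded for most genes. The median absolute log2 fold change was 0.12 for non-responders and 0.20 for responders, both against control IgG tumors. The middle of the distribution was at 0.01, and 51.3% of genes had a log2 fold change above 0. The median 95% half-width of the log2 fold change was 0.33. For 13457 genes (82.6%), the whole interval lay within 2-fold in either direction, and for 62.8% it lay within 1.5-fold. Only 223 genes (1.37%) had an estimate beyond 2-fold, against 785 (4.82%) for the responders. The precision depended on expression. Among the 4072 genes with the highest mean log2 CPM, the median half-width was 0.23, and 99.0% of intervals lay within 2-fold. Among the 4072 genes with the lowest, the median half-width was 0.80, and 42.1% did. A 2-fold difference in a weakly expressed gene was thus often within the interval at this number of tumors.

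**Figure D1:**
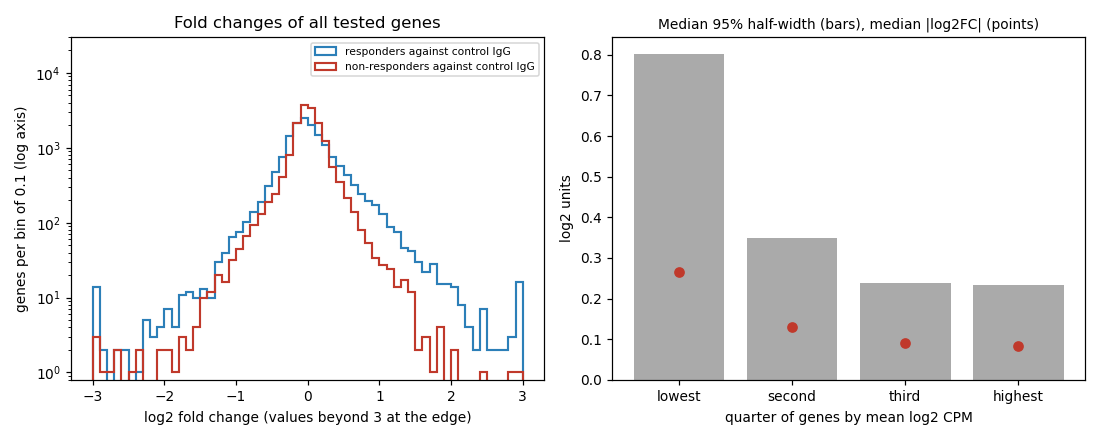
Left, number of tested genes (log axis) by log2 fold change against control IgG tumors, for non-responders (red) and responders (blue). Right, median half-width of the 95% interval (bars) and median absolute log2 fold change (points) for non-responders against control IgG, in 4 equal groups of genes by mean log2 CPM. The non-responder distribution is narrower, and in each group the median half-width (0.80 to 0.23) exceeds the median absolute fold change (0.27 to 0.08).

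Distances between whole profiles were compared next. The root mean square difference of log2 CPM per gene averaged 0.611 between a non-responder and a control IgG tumor, and 0.630 between tumors of the same group. The difference of -0.0194 was within the spread of tumors (two-sided exact permutation test over 126 splits, p = 0.54, adjusted over 3 pairs of groups 0.54). Between responders and control IgG tumors, the mean distance was 0.755 against 0.657 within groups (two-sided exact permutation test, p = 0.0635, adjusted p = 0.0952). Between responders and non-responders it was 0.724 against 0.651 (two-sided exact permutation test, p = 0.0476, adjusted p = 0.0952). The smallest p that the design allows is 0.0159 for the pairs with non-responders. A non-responder could be as near to a control IgG tumor as 0.445, and as far as 0.851. Without tumor 14R, the difference between non-responders and control IgG tumors turned to 0.0173 (two-sided exact permutation test, p = 0.343).

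**Figure D2:**
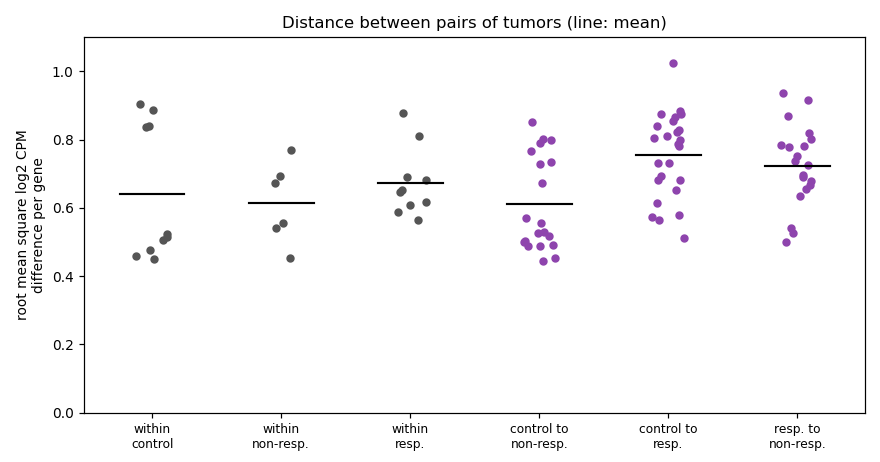
Root mean square difference in log2 CPM per gene for each pair of tumors, with pairs within a group in gray, pairs between groups in purple, and a line at the mean. Pairs of a control IgG and a non-responder tumor average 0.611, which is below the mean of pairs within control IgG tumors (0.640) and within non-responders (0.614).

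The genes nearest to the threshold were Retnla, Lyz1 and Ms4a8a, which macrophages express. Retnla, Lyz1 and Ms4a8a shared the lowest adjusted p (0.0683), and each passed with DESeq2 and with edgeR without a filter on low counts. These were 2 of 11 alternatives, and with 1 tumor left out each gene passed in 0 of 9 fits. Their promoters, 300 bases from 250 before to 50 after the start site (RefSeq, GRCm38.p6), are shown because these genes lead the comparison, with any match to the STAT6 motif in capitals. The motif is TTCNNNNGAA, which reads the same on both strands, and the capitals mark its fixed bases. Retnla is on the plus strand at chr16:48842359-48842658, Lyz1 on the minus strand at chr10:117292819-117293118, and Ms4a8a on the minus strand at chr19:11081054-11081353.
Retnla: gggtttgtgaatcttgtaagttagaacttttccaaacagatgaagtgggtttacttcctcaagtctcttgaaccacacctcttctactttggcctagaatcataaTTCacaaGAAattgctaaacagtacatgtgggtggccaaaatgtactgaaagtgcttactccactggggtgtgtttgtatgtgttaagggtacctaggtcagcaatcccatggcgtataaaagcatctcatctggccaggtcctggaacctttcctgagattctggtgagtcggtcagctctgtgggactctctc
Lyz1: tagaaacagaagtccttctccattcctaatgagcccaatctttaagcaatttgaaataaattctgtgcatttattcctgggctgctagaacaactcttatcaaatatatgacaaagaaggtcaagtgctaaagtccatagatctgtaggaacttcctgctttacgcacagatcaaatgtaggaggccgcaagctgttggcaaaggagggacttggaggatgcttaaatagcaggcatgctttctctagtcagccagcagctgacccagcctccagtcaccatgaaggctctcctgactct
Ms4a8a: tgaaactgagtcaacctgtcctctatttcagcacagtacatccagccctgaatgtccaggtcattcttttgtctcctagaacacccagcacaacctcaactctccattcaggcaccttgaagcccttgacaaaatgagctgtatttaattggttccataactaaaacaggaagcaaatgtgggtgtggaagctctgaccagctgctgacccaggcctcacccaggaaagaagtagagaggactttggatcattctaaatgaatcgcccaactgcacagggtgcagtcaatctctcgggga
The Retnla window held 1 match, which began 145 bases before the start site, and the other 2 windows held 0. Of 32851 promoters of this length, 6.95% held the motif. Promoters were at hand for 14 of the 20 alternatively activated macrophage genes, and 2 of these, Cd36 and Retnla, held it. A match is a run of letters and not a measured binding site.

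Retnla encodes a secreted protein of the resistin-like family that is made by alternatively activated macrophages. It was at 17.4, 8.27, 18.7 and 17.1 CPM in non-responders 29L, 32R, 33L and 33R. In the control IgG tumors it was at 1.53, 2.09, 0.631, 2.41 and 0.274 CPM. Every non-responder lay above every control IgG tumor, with tumor 32R lowest among them. The log2 fold change was 3.46 ± 0.53 (SE), with a 95% interval of 2.33 to 4.59. Leaving out 1 tumor at a time gave log2 fold changes of 3.19 to 3.75 and adjusted p-values of 0.0916 to 0.301 with edgeR. In responders, Retnla was at 41.9 ± 21.6 CPM (SD, n = 5), and it was 1.45 higher than in non-responders on the log2 scale (edgeR, adjusted p = 0.0702). In bulk tumors, a difference in the number of cells of a type cannot be told apart from a difference in RNA per cell.

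Lyz1 encodes one of the mouse lysozymes. It was at 10.4, 9.43, 13.8 and 18.1 CPM in non-responders, and at 4.30 to 5.40 CPM in control IgG tumors. The log2 fold change was 1.41 (95% interval 0.95 to 1.87), and the groups did not overlap. Lyz1 lies beside Lyz2, a highly similar and far more abundant macrophage lysozyme, between which fragments could be misassigned. Lyz2 was at 2264, 1948, 1921 and 3319 CPM in non-responders and 1633 to 2053 in control IgG tumors, with a log2 fold change of 0.35 (0.05 to 0.66), which was 0.13 without 33R. Lyz1 made up 0.458% to 0.713% of the 2 genes' summed CPM in non-responders and 0.219% to 0.329% in control IgG tumors. The share of Lyz1 was thus higher in every non-responder, but it is built from the same Lyz1 values. Misassignment between the 2 genes was not tested.

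Ms4a8a encodes a membrane protein of the MS4A family that is found on subsets of macrophages. It was at 8.92, 7.25, 6.43 and 6.27 CPM in non-responders, and at 2.84, 3.61, 3.05, 3.71 and 2.22 CPM in control IgG tumors. The log2 fold change was 1.23 (95% interval 0.82 to 1.63), and leaving out 1 tumor at a time gave 1.11 to 1.30. Responders were higher again, at 15.4 ± 3.60 CPM (SD, n = 5), without overlap with either group. Of the 12 genes with the smallest p in the non-responder comparison, Ms4a8a was the 1 that also passed between responders and non-responders. Over all genes, 9.9% passed there, so 1 of 12 is near the background share. Responders were 1.09 higher in Ms4a8a than non-responders on the log2 scale (edgeR, adjusted p = 0.00751). This call held with any 1 anti-PD-1 tumor left out.

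Of these 12 genes, 11 were higher in non-responders. Among all genes at an unadjusted p under 0.05, 478 of 758 were higher, and on TPM 179 of 839. Smpdl3a, a phosphodiesterase of lipid-laden macrophages, was at 29.9 to 38.3 CPM in non-responders and 18.1 to 22.6 in control IgG tumors, a log2 fold change of 0.76 (0.48 to 1.05). Pltp, which transfers phospholipids between lipoproteins, was at 92.1 to 102 CPM against 52.5 to 66.5, a log2 fold change of 0.78 (0.43 to 1.12). Cd5l, a secreted scavenger receptor protein of macrophages, was at 2.81, 1.55, 3.51 and 7.22 CPM against 0.217 to 1.08. These 3 genes were also higher in responders than in control IgG tumors, with log2 fold changes of 1.04, 1.28 and 3.37 (edgeR, adjusted p = 0.000483, 0.000483 and 0.00201). All 12 genes were picked for a small p against these same control IgG tumors. Their values in responders against control IgG tumors are therefore not independent of that choice. Pltp overlaps Ctsa on the other strand, and the counting is not stated to use strand.

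Wfdc17, a small secreted whey acidic protein of myeloid cells, was at 80.0, 63.1, 67.3 and 143 CPM in non-responders. Control IgG tumors were at 31.4 to 48.4 CPM, and the log2 fold change was 1.30 (0.77 to 1.83). Sox18, a transcription factor of endothelium, was at 14.8 to 22.1 CPM against 8.13 to 11.5. Its log2 fold change was 0.74 (0.45 to 1.02), and that of the responders was 0.75 (edgeR, adjusted p = 0.00236). Zmynd15 was the 1 gene of the 12 that was lower in non-responders, at 3.74 to 5.83 CPM against 7.34 to 10.8, a log2 fold change of -0.87 (-1.19 to -0.54). It overlaps Cxcl16 on the other strand. Hsf2bp, which overlaps Rrp1b, the olfactory receptor gene Olfr1388 and the noncoding AI606473 were each under 1 CPM in all tumors. Their expected counts were 27 to 40, 15 to 23 and 6 to 16 in non-responders, and 8 to 20, 3 to 7.02 and 2 to 5 in control IgG tumors.

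**Figure D3:**
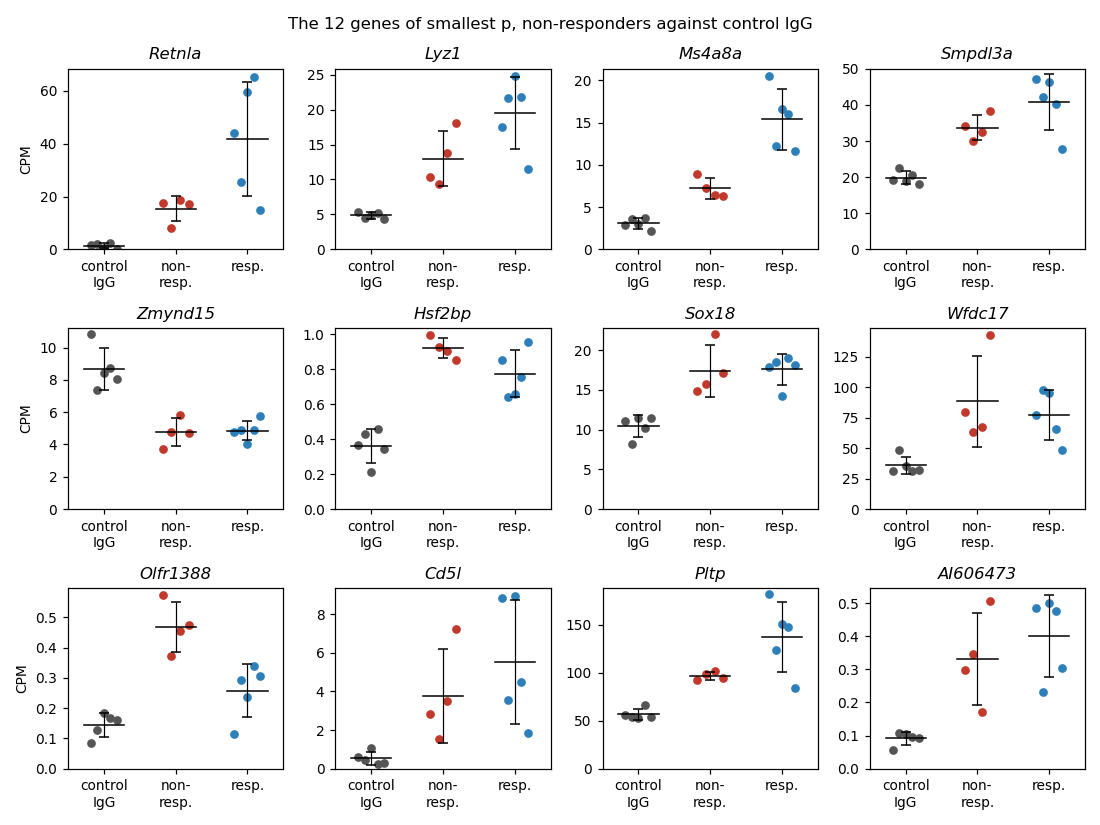
CPM of the 12 genes with the smallest p between non-responders and control IgG tumors, with 1 point per tumor, a line at the mean and bars of 1 SD. Axes start at 0 and differ between genes. In Retnla and Ms4a8a the non-responders lie between the control IgG tumors and the mean of the responders, whereas in Sox18 and Zmynd15 they lie at the level of the responders.

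DESeq2 also called 6 genes outside these 12. Klf10, an early response gene induced by TGF-beta, was at 61.2 to 77.3 CPM in non-responders. The control IgG tumors were at 49.7 to 60.2. Klf10 differed by 0.41 on the log2 scale (0.21 to 0.61) in edgeR, and its adjusted p in DESeq2 was 0.0303. Dlk2, a Notch ligand-like membrane protein, was at 2.92 to 3.27 against 1.14 to 2.41 CPM. Lpcat2, an enzyme of lysophospholipid remodeling in myeloid cells, was at 6.49 to 10.2 against 11.2 to 14.0 CPM, a log2 fold change of -0.65 (-0.96 to -0.33). Slc5a5 had 6 to 13 expected counts in non-responders and 18 to 63 in control IgG tumors.

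Trbv14, a variable segment of the T cell receptor beta chain, had 1, 0, 0 and 0 expected counts in the 4 non-responders. In control IgG tumors it had 55 and 44 in 14L and 14R, which share a mouse, and 2, 18 and 4 in the others. Responders 30L and 30R, also of 1 mouse, had 15 and 36, and the other responders 3 to 6.

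The largest higher estimates among expressed genes without overlap, beyond those above, were Rmrp (log2 fold change 1.08), F10 (1.09), Rn7s1 (1.25) and mt-Rnr2 (1.03). Rmrp and Rn7s1 are noncoding RNAs without a poly(A) tail, which oligo(dT) selection does not target, and mt-Rnr2 is a mitochondrial ribosomal RNA. F10, coagulation factor X, was at 2.96 to 3.36 CPM against 0.731 to 2.24. Among the largest lower estimates, beyond Zmynd15 and Lpcat2, were Kcnj10 (-1.20), Has1 (-0.74), Egr3 (-0.60), Arc (-0.56) and Gpr183 (-0.53). Egr3 and Arc are immediate early genes, Has1 makes hyaluronan, and Gpr183 guides immune cells along oxysterols. None of these 9 had an adjusted p below 0.708 in edgeR.

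Genes were then read in 31 lists, by cell type or pathway. The lists had 0 genes with an adjusted p under 0.05, the background share being 0%. The mean log2 CPM of the list overlapped between non-responders and control IgG tumors in all 31, and the median log2 fold change lay within 0.3 of 0 in 27. Counts of members with an unadjusted p under 0.05 are given below, and those of the main fit can be read against the 4.65% of all genes. The background differed in fits with 1 tumor left out. It was 514 of 16224 genes without 14L, 654 of 16226 without 17R and 691 of 16521 without 33R. Without 29L it was 1152 of 16545, and without 33L 1401 of 16525.

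**Figure D4:**
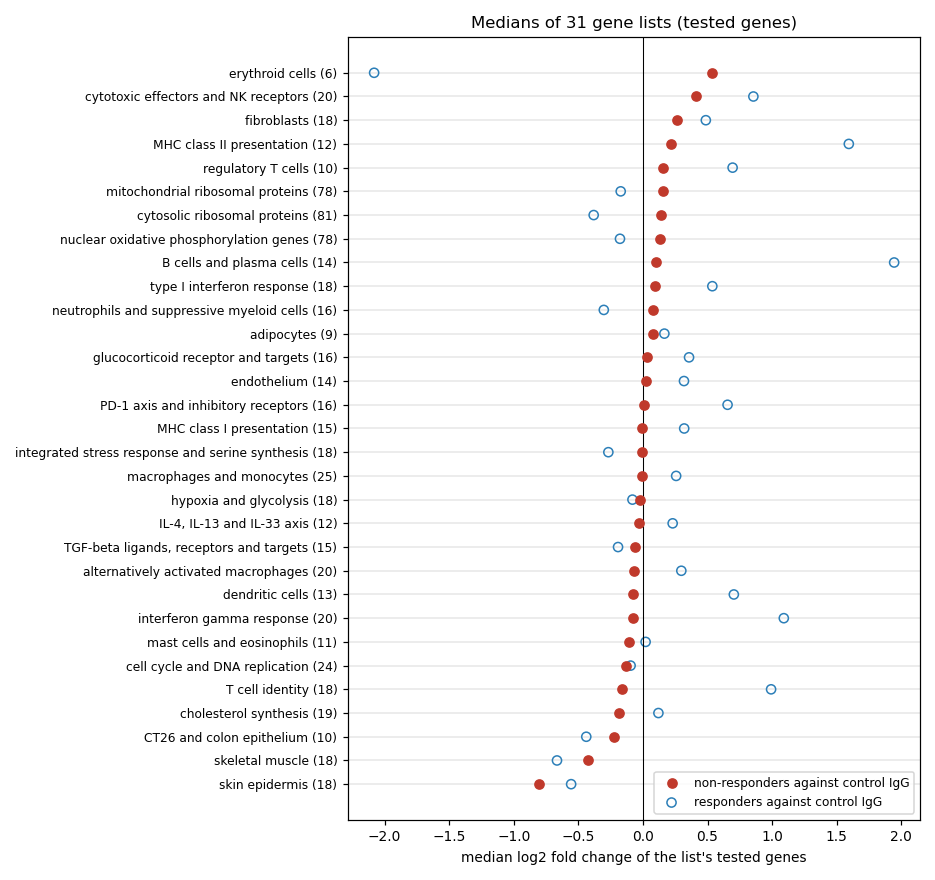
Median log2 fold change against control IgG tumors over the tested genes of each of 31 lists, for non-responders (filled red) and responders (open blue), with the number of tested genes in brackets. Medians of the non-responders lie within 0.3 of 0 in 27 lists, whereas the responders reach 1.95 for B cells and plasma cells and -2.08 for erythroid cells.

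The alternatively activated macrophage genes did not move as a block. Of 20, 9 were above 0, the median log2 fold change was -0.07, and 7 had an unadjusted p under 0.05, of which 5 were higher and 2 lower. Without 33R there were 3 higher and 2 lower, and without 33L 5 and 4. Beside Retnla, the higher ones were Arg1, Clec10a, Cd36 and Folr2, and the lower ones were Mgl2 and Cd209f (Clec10a, Cd36, Folr2 and Cd209f were named after their values were seen). Arg1, the arginase that depletes arginine, was at 109, 127, 116 and 190 CPM in non-responders. Control IgG tumors were at 69.4 to 79.4 except 14R, at 130, so the groups overlapped. The log2 fold change was 0.65 (0.12 to 1.19), or 0.43 without 33R, and in responders it was 0.14.

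Mgl2 encodes a galactose-binding lectin of macrophages and dendritic cells. It was at 5.93, 2.52, 4.36 and 3.45 CPM in non-responders and at 5.10 to 15.6 in control IgG tumors, a log2 fold change of -1.23 (-1.86 to -0.60). Responders were at 9.96 ± 1.69 CPM (SD, n = 5), which was 0.06 from the control IgG tumors on the log2 scale and 1.29 above the non-responders (edgeR, adjusted p = 0.0181). That call did not hold without 32R or without 33R (edgeR, adjusted p = 0.0548 and 0.0506). Its neighbor Clec10a, a lectin with a similar sequence, was at 16.2, 9.01, 14.6 and 15.6 CPM in non-responders and at 6.86 to 11.8 in control IgG tumors, a log2 fold change of 0.62 (0.23 to 1.01). How fragments were divided between them is uncertain, and the sum of both overlapped, at 11.5 to 22.2 CPM in non-responders and 11.95 to 27.4 in control IgG tumors, against 30.9 to 38.1 in responders. Mrc1, the mannose receptor, had a log2 fold change of -0.24 (-0.72 to 0.25).

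General macrophage and monocyte genes were centered on 0, with 12 of 25 above 0 and a median of -0.01. Lyz1, Ms4a8a and Lyz2 were the 3 higher ones at an unadjusted p under 0.05, and Csf1r and Cx3cr1 the 2 lower ones. Without 33R there were 2 higher and 1 lower. Csf1r, the receptor for the macrophage growth factor, was at 183, 141, 186 and 110 CPM in non-responders and 172 to 202 in control IgG tumors, a log2 fold change of -0.32 (-0.62 to -0.02), or -0.20 without 33R. Cx3cr1, the fractalkine receptor, was at 5.80 to 14.6 against 11.1 to 27.8 CPM. The IL-4, IL-13 and IL-33 list had 4 of 12 tested genes above 0, and Il4, Il5 and Il13 themselves had too few counts to be tested.

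T cell genes overlapped the control IgG tumors. Of 18 T cell identity genes, 5 were above 0, 0 had an unadjusted p under 0.05, and the median log2 fold change was -0.16, against 0.99 for the responders. Cd8a, the coreceptor of cytotoxic T cells, was at 9.39, 10.1, 7.51 and 7.25 CPM in non-responders and at 6.20 to 16.3 in control IgG tumors. The estimate of -0.33 on the log2 scale had an interval of -0.85 to 0.19, so an increase beyond 0.19 lay outside it in this fit. With 1 tumor left out, the estimate for Cd8a was -0.47 to -0.13. The list median was -0.29 without 16R, -0.02 without 14L, and -0.03 with 1 library per mouse. Tumor 14L had the highest Cd8a of the control IgG tumors. Cd4 was at -0.34 (-0.83 to 0.14) and Cd3e at -0.48 (-1.02 to 0.06). Against the non-responders, Cd8a was higher in responders by 1.19, Cd4 by 1.4 and Cd3e by 1.27 on the log2 scale (edgeR, adjusted p = 0.0137, 0.00628 and 0.0123), without overlap of the tumors. Of the 18 genes, 16 passed as higher in responders, against 5.08% of all genes. With 1 anti-PD-1 tumor left out, Cd8a, Cd4 and Cd3e passed each time. The count over the list was then 10 to 16, while that over all genes was 569 to 1978, both lowest without 24L.

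PD-1 axis genes had a median near 0. Of 16 genes of PD-1, its ligands and other inhibitory or costimulatory receptors, 8 were above 0, and the median was 0.01. Pdcd1, which encodes PD-1, was at 8.12, 8.27, 5.47 and 7.98 CPM in non-responders and 6.58 to 13.3 in control IgG tumors, a log2 fold change of -0.33 (-0.80 to 0.15). Cd274, which encodes PD-L1, was at 24.1 to 28.2 against 22.2 to 33.6 CPM, with a log2 fold change of -0.12 (-0.63 to 0.38). Havcr2, which encodes the inhibitory receptor TIM-3, was the 1 gene at an unadjusted p under 0.05, at 16.4 to 18.9 against 11.8 to 15.8 CPM (log2 fold change 0.32). Its tumors did not overlap, and in responders it spread from 12.5 to 20.4 CPM.

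Regulatory T cell genes had 9 of 10 above 0, with a median of 0.16, and 6 of 10 without 33R. Foxp3, their defining transcription factor, had a log2 fold change of 0.22 (-0.54 to 0.98). The 1 gene below 0, Ccr8, a chemokine receptor of tumor regulatory T cells, had an unadjusted p under 0.05 and was under 0.5 CPM in all 9 tumors. B cell and plasma cell genes had 9 of 14 above 0 and a median of 0.10, against 1.95 for responders. Pax5, the B cell transcription factor, was at 2.12, 1.06, 0.736 and 0.570 CPM in non-responders and 0.525 to 0.824 in control IgG tumors, with 29L highest. The estimate was 0.80 on the log2 scale, and 0.29 without 29L. Without 33R, the list median was -0.06.

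Interferon gamma targets overlapped the control IgG tumors too. Their mean log2 CPM was 5.14 to 5.23 in the 4 non-responders, and 4.52 to 5.74 in the control IgG tumors around them. The median log2 fold change over 20 genes was -0.08 (-0.24 without 16R and 0.11 without 14L). Of these genes, 6 were above 0 and 0 had an unadjusted p under 0.05. Between responders and non-responders, 17 passed as higher in responders, against 5.08% of all genes. That count was 7 without 33R or 24L, 8 without 32R or 30R, 9 without 30L and 10 without 29L. Totals over all genes, in both directions, were 793, 569, 615, 686, 1147 and 1978 in these fits, in the same order. Ifng itself was at 0.324 to 0.523 against 0.229 to 0.683 CPM. Cxcl9 was at 48.9 to 76.0 against 33.0 to 104 CPM, a log2 fold change of -0.12 (-0.74 to 0.50) that turned to 0.11 with 1 library per mouse. Cxcl10 had a log2 fold change of -0.56 (-1.34 to 0.22), and Ccl5, a chemokine of cytotoxic lymphocytes, one of 0.47 (-0.07 to 1.01).

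Antigen presentation genes were read in separate lists for both MHC classes. MHC class I presentation genes had 7 of 15 above 0 and a median of -0.0036, and all 15 intervals lay within 2-fold. MHC class II genes had 9 of 12 above 0 and a median of 0.22, against 1.59 in responders. The median was 0.05 without 16R or 29L, 0.03 without 20R and 0.38 without 14L. Their 1 member at an unadjusted p under 0.05 was Ctss, the protease that trims the invariant chain, at 436 to 507 CPM against 312 to 452 (log2 fold change 0.28). Type I interferon genes had 11 of 18 above 0 and a median of 0.10, with tumors 33R and 14R the highest of their groups, at a mean log2 CPM of 6.01 and 6.15. Without 33R, 3 of 18 were above 0 and the median was -0.12.

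Cytotoxic and NK genes were the immune list with the largest median. Of 20 genes, 18 were above 0, the median log2 fold change was 0.41, and 3 had an unadjusted p under 0.05, namely Gzma, Klrb1c and Ncr1 (the last named after its values were seen). The list mean was 3.19, 3.47, 3.33 and 4.06 in the 4 non-responders and 2.81 to 3.40 in control IgG tumors. Tumor 33R lay above all others, and without it the median was 0.09, with 16 of 20 above 0 and 1 of 20 at an unadjusted p under 0.05. Gzma, a granzyme of NK and T cells, was at 38.5, 41.0, 27.0 and 65.1 CPM in non-responders and 20.6 to 32.9 in control IgG tumors, a log2 fold change of 0.74 (0.19 to 1.29), or 0.45 without 33R. Klrb1c, which encodes the NK1.1 family receptor, was at 1.11 to 1.74 against 0.499 to 1.08 CPM, without overlap. Ncr1, which encodes the NK receptor NKp46, was at 4.68, 6.37, 6.005 and 9.57 against 4.12 to 5.02 CPM, and its log2 fold change of 0.53 was 0.29 without 33R.

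Granzymes split into different patterns across the groups. Gzmd, one of a cluster of closely related granzymes that activated lymphocytes make, was at 103, 183, 159 and 444 CPM in non-responders and 70.0 to 178 in control IgG tumors. The estimate was 0.67 on the log2 scale (-0.34 to 1.67), and 0.07 without 33R. In responders it was 1.70 lower than in non-responders on the log2 scale (edgeR, adjusted p = 0.0384), a call that held in 3 of 9 fits with 1 anti-PD-1 tumor left out, and without 33R the difference was -1.10. Gzmd was named after its values were seen. Gzmb and Prf1 had log2 fold changes of 0.39 (-0.28 to 1.07) and 0.29 (-0.34 to 0.92), and 33R was the highest non-responder in both, at 130 and 101 CPM. Without 33R they were at 0.0358 and 0.0504.

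**Figure D5:**
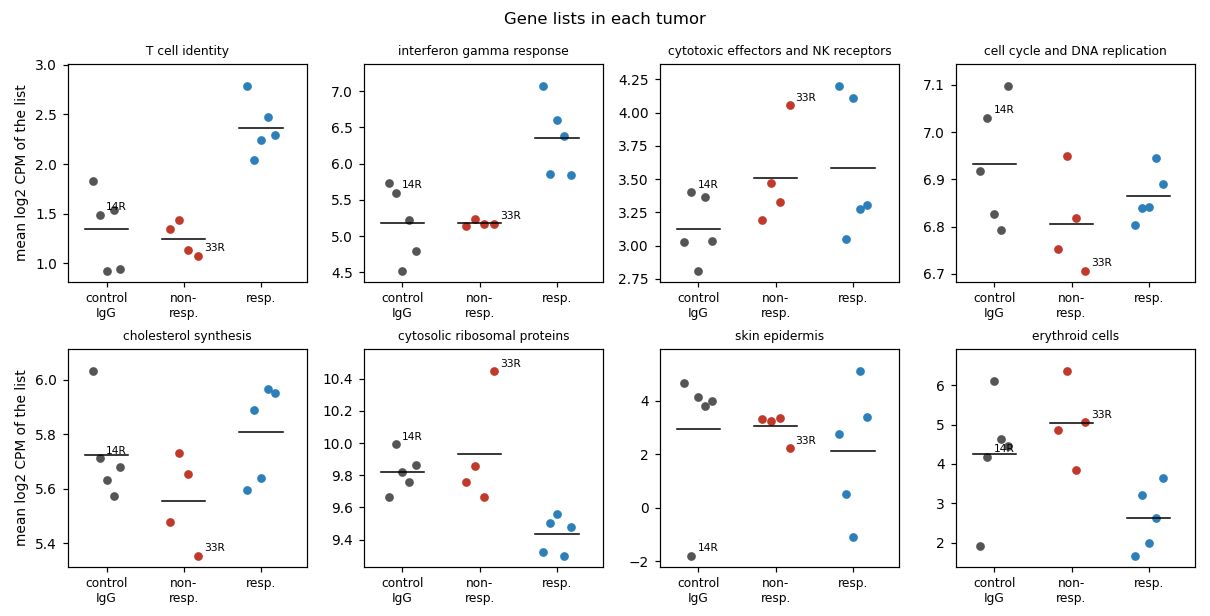
Mean log2 CPM of 8 gene lists in each tumor, with 1 point per tumor, a line at the group mean, and tumors 33R and 14R named. Axes differ between lists and do not start at 0. Non-responders overlap control IgG tumors in every list, 33R sets the highest non-responder value of the cytotoxic and ribosomal lists, and 14R stands apart in skin epidermis (-1.79).

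Myeloid and stromal lists varied between tumors more than between groups. Neutrophil and suppressive myeloid genes had 9 of 16 above 0 and a median of 0.08. S100a8 was at 5.21 to 12.01 against 4.48 to 18.3 CPM, a log2 fold change of -0.02 (-0.97 to 0.93). Mmp9, a gelatinase of neutrophils and macrophages, was at 26.6, 19.1, 90.8 and 56.6 CPM in non-responders, with 33L and 33R, of 1 mouse, highest. Fibroblast genes had 13 of 18 above 0 and a median of 0.27. Tumor 33L was the highest non-responder, with Col1a1, the alpha 1 chain of type I collagen, at 688 CPM against 253 to 289 in the other 3 and 229 to 355 in control IgG tumors. Without 33L the median of the list was -0.06 and the log2 fold change of Col1a1 was -0.11. Cthrc1, a collagen-associated secreted protein, was at 6.71 and 10.8 CPM in 33L and 33R and at 2.07 and 2.18 in 29L and 32R, against 1.70 to 3.47 in control IgG tumors, and its log2 fold change of 1.14 was 0.55 without 33R. Dendritic cell genes (5 of 13 above 0, median -0.08), mast cell and eosinophil genes (5 of 11, -0.11) and endothelial genes (9 of 14, 0.02) had 0 members at an unadjusted p under 0.05.

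Cholesterol synthesis genes mostly had estimates below 0. Of 19 genes, 17 were below 0, the median log2 fold change was -0.19, and 3 had an unadjusted p under 0.05. That count was 1 without 33R or 14L and 5 without 17R. Fdft1, squalene synthase, was at 55.7, 63.3, 56.6 and 53.7 CPM in non-responders and 63.1 to 77.0 in control IgG tumors, a log2 fold change of -0.29 (-0.51 to -0.08). Fdps, which makes farnesyl diphosphate, was at 97.3 to 126 against 116 to 159 CPM, also -0.29 (-0.55 to -0.03), and in responders it was 0.46 above the non-responders (edgeR, adjusted p = 0.0318), a call that held in 4 of 9 fits with 1 anti-PD-1 tumor left out. Lss, lanosterol synthase, named after its values were seen, was at -0.29 (-0.58 to -0.0019), or -0.16 without 33R, with 33R at 23.9 and the other non-responders at 38.0 to 39.9 CPM. The list median was between -0.24 and -0.11 with any 1 tumor left out, and the intervals of 17 of 19 genes lay within 2-fold. The responders had a median of 0.12 against control IgG tumors, with 0 of 19 passing.

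Cell cycle and DNA replication genes also mostly had estimates below 0. Of 24 genes, 22 were below 0, the median was -0.13, and all 24 intervals lay within 2-fold. The 4 with an unadjusted p under 0.05 included Mcm3, a subunit of the replicative helicase, at 134, 156, 137 and 107 CPM against 149 to 191, a log2 fold change of -0.27 (-0.51 to -0.04). They also included E2f1, the transcription factor of S phase entry, at 42.7 to 53.2 against 51.8 to 63.6 CPM. Mki67, a marker of cycling cells, was at 248, 229, 275 and 95 CPM in non-responders and 171 to 293 in control IgG tumors. Without 33R its log2 fold change of -0.16 turned to 0.07, while 22 of 24 list genes were still below 0 and 0 of them had an unadjusted p under 0.05.

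Ribosomal and oxidative phosphorylation genes were highest in 33R. Above 0 were 72 of 81 cytosolic ribosomal protein genes, 74 of 78 mitochondrial ones and 70 of 78 nuclear oxidative phosphorylation genes, with medians of 0.14, 0.15 and 0.13. On TPM the medians were 0.01, 0.03 and -0.01, where the median of all genes was -0.08, against 0.01 in the main fit. Without 33R, 13 of 81, 26 of 78 and 18 of 78 were above 0, with medians of -0.07, -0.03 and -0.06. Rps7 was at 757, 944, 786 and 1943 CPM in non-responders and 700 to 868 in control IgG tumors. Mrps24 was at 64.0 CPM and Uqcrq at 257 CPM in 33R, against 31.8 to 42.8 and 121 to 163 CPM in the other non-responders. Without 33R, the log2 fold changes of Rps7, Mrps24 and Uqcrq were 0.07, 0.17 and 0.13, against 0.50, 0.45 and 0.42 with it. Between responders and non-responders, 62 of the 81 cytosolic ribosomal protein genes passed as lower in responders, against 4.82% of all genes. Without 33R, 11 of 81 passed (13.6%, against 1.74% of all genes), and the count was 6 without 24L, 8 without 30R, 13 without 32R, 30 without 35L and 38 without 26R. Totals over all genes, in both directions, were 569, 686, 615, 1253 and 1417 in the last 5 of these fits, in the same order. Against control IgG tumors, 25 of the 81 passed as lower in responders, beside 863 of all 16287 genes.

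Stress and signaling lists were near 0. Hypoxia and glycolysis genes (6 of 18 above 0, median -0.02) and integrated stress response and serine synthesis genes (9 of 18, -0.01) had all intervals within 2-fold. Of 15 TGF-beta genes, 12 were below 0, with a median of -0.06, and Tgfbi, a matrix protein named for its induction by TGF-beta, was at -0.39 (-0.76 to -0.02), or -0.25 without 33R. Glucocorticoid receptor targets had 8 of 16 above 0, with 1 higher and 2 lower at an unadjusted p under 0.05 (4 higher without 33R or 17R, 3 higher without 33L, and 5 lower without 29L). The higher one, Zbtb16, a zinc finger transcription factor named after its values were seen, was at 2.47, 1.02, 2.41 and 1.05 CPM in non-responders and 0.491 to 1.55 in control IgG tumors, a log2 fold change of 1.12 (0.32 to 1.92). Sgk1, a kinase induced by glucocorticoids, was at 246 CPM in 29L and at 140, 117 and 105 in 32R, 33L and 33R, against 215 to 261 in control IgG tumors. Errfi1, a feedback inhibitor of the EGF receptor, showed the same order, with 426 in 29L, 298, 280 and 235 in the others, and 372 to 468 in control IgG tumors. Their log2 fold changes were -0.66 (-1.13 to -0.20) and -0.44 (-0.74 to -0.14), and without 29L they were -0.99 and -0.64.

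Markers of the tumor and of its surroundings were checked last. Of 14 genes listed for CT26 and colon epithelium, 4 (Cdx1, Vil1, Muc2 and Cldn7) had too few counts to be tested, and 7 of the other 10 were below 0, with a median of -0.22. Cd44, an adhesion receptor that CT26 cells and leukocytes both carry, was at 358 to 430 CPM in non-responders and 450 to 499 in control IgG tumors, a log2 fold change of -0.27 (-0.44 to -0.10), and in responders it was at 294 to 368 CPM. All 18 skin epidermis genes were below 0, with a median of -0.80 (0.49 with mouse as a random effect in limma-voom), while the list mean was 3.04 in the non-responders against 2.96 in control IgG tumors, with 14R lowest, where Krt1, a keratin of epidermis, was at 0.555 CPM against 83.2 to 131 in the other control IgG tumors. In non-responders, Krt1 was at 20.2 to 47.7 CPM. Skeletal muscle genes had 17 of 18 below 0, and a median of -0.42 (-1.56 without 33R and 0.76 without 14R), with Myh4, a fast myosin, at 250 CPM in 14R and 83.0 in 33R against 20.6 to 50.4 in the other 7 tumors. Erythroid genes had 6 of 6 above 0 and a median of 0.54, but Hba-a1, a globin gene, spread from 69.1 to 395 CPM in non-responders and from 16.2 to 334 in control IgG tumors. Without 32R, the list median was -0.06. Adipocyte genes had 6 of 9 above 0 and a median of 0.08, which was -0.52 without 33R. The part of skin, muscle and blood in the other lists was not tested.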

How the data were processed

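Bulk RNA-seq of 14 tumors was analysed, and groups and tumor names were taken from the labels. Per the labels, RNA was enriched with oligo(dT) beads, and the submitters' processing notes name STAR, RSEM and the mm10 build, with no settings. The authors deposited expected counts per gene, which are RSEM estimates and were not normalized. TPM values, which the authors scaled by effective length to a fixed total, served as an alternative. The deposited FPKM values were not used. No pair of tumors within a group looked like duplicates of 1 library (chi-square per gene of 20.65 or more). That does not bear on whether tumors of 1 mouse are independent. The paper reports that tumors of the same mouse were correlated in size, and more alike in barcodes than tumors of different mice. The main fit and the permutation tests treated tumors of 1 mouse as separate. Their p-values and intervals therefore measure the spread between these tumors and not between mice.

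The expected counts were rounded. The quasi-likelihood test of edgeR 4.0.16 in R 4.3.3 was run after filterByExpr and TMM scaling, with p-values adjusted by Benjamini-Hochberg, with all 14 tumors in 1 fit and no covariates. DESeq2 1.42.0, which the study's methods name for its cell lines, and limma-voom (limma 3.58.1) were alternatives. Log2 CPM had a prior count of 2, and log2 TPM a pseudocount of 1. Of 53801 genes, 53620 were matched to a symbol, and 16287 were tested. Scripts were tested on simulated data. In a library, 3 counts were at most 8.75e-06% of the total in the 9 tumors, a floor that covers counting error only.

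The groups, lists and the rule for named genes were chosen with earlier results of these data known. Named were the 12 genes of smallest p, the 8 highest and 8 lowest fold changes among genes with an unadjusted p under 0.05, no overlap and mean log2 CPM not below 1, the 2 genes of smallest p in each list, genes called by DESeq2, and a fixed set of checkpoint, effector, myeloid and proliferation genes. Some are left out or not reported here. Genes named outside the rule (Clec10a, Cd36, Folr2, Cd209f, Cx3cr1, Csf1r, Ncr1, Gzmd, Lss and Zbtb16) were chosen after their values were seen. A list is described by counts and its median over all tested members. Alternatives were other tools, normalizations, filters, covariates and offsets, 1 library per mouse, TPM, and fits that each left out 1 tumor (for responders against non-responders, these were added after the data were seen). Barcodes, immunohistochemistry and repertoires were not analysed here.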

Additional observations from a re-analysis of the deposited data

Results flagged for a closer look

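Of 218 sets of values (a gene, a list mean or the total count in 1 group), 18 had a tumor far from the rest of its group by Dixon's test, which chance alone gives in about 1 of 20. Values are log2 CPM. Tumor 14R was at -1.79 for the mean of the skin epidermis list (others 3.79 to 4.67), at -0.73 for Krt1 (6.38 to 7.03), at 6.09 for skeletal muscle (2.84 to 3.70), at 7.03 for Arg1 (6.12 to 6.31), and at 7.43 for Csf1r (7.61 to 7.66). Among non-responders, tumor 33R was at 2.23 for the skin epidermis list (3.25 to 3.35), at 4.34 for Krt1 (5.38 to 5.58), and at 4.58 for Lss (5.25 to 5.32). Tumor 32R was at 3.06 for Retnla (4.10 to 4.23) and at 3.75 for the alternatively activated macrophage list (4.32 to 4.41). Tumor 33L was at 9.43 for Col1a1 (7.98 to 8.17), at 2.46 for Pdcd1 (3.006 to 3.06), and at 3.62 for the CT26 and colon epithelium list (3.14 to 3.21). Tumor 29L was at 5.94 for Klf10 (6.22 to 6.27), and at -3.75 for Trbv14, where the other 3 had no count and were at -4.34. Among control IgG tumors, 17R was at 6.06 for Pltp (5.71 to 5.79), 14L at -3.24 for AI606473 (-2.83 to -2.68), and 16R at 2.80 for Rn7s1 (3.70 to 4.04).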

How the results depend on the processing

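The count of genes with an adjusted p under 0.05 was 0 in edgeR under every other normalization, covariate or offset, with 1 library per mouse, with the compared groups alone, on TPM, in limma-voom with or without a mouse effect, and with any 1 tumor left out. DESeq2 gave 16 genes (11 higher, 5 lower), and edgeR without a filter gave 3. At an unadjusted p under 0.05, the count of 758 became 1193 with a mouse effect in limma-voom (limma's duplicate correlation was -0.282), 1321 with flank as a covariate, and 514 to 1401 with 1 tumor left out, the highest without 33L, with 1152 without 29L. The share of intervals within 2-fold fell to 49.2% in DESeq2 and 51.9% without a filter, which add genes of low counts, and was 78.2% to 81.3% with 1 tumor left out. DESeq2 gave 2559 genes between responders and non-responders. The distance difference was 0.000677 on TPM, and -0.0438 to 0.0173 with 1 tumor left out. TPM moved the median of all genes to -0.08.

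Of 77 genes followed, 8 changed sign somewhere, and the cause was not tested. Ifng was at 0.0613 (limma-voom), 0.0749 (1 library per mouse), 0.0858 (TPM), 0.14 (without 33R and 14R, chosen after the data were seen) and -0.22 to 0.14 with 1 tumor left out. Cxcl9 was at 0.11 (1 library per mouse), 0.0295 (without 33R and 14R) and -0.28 to 0.13. S100a8 was at 0.0791 (limma-voom), 0.21 (mouse effect), 0.0597 (flank), 0.0305 (TPM) and -0.28 to 0.50. Krt1 was at 0.00818 (limma-voom) and 0.26 (mouse effect). With 1 tumor left out, Col1a1 was at -0.11 to 0.52, Mki67 at -0.32 to 0.0699, Hba-a1 at -0.0266 to 1.27 and Myh4 at -1.49 to 0.10. Of 651 list medians recomputed, 649 moved by less than 1 SD of the tumors' list means. That bound is wide, since a median could change sign and still lie within it. The skeletal muscle median of -0.42 was -1.56 without 33R and 0.76 without 14R, and these moves were within the bound. So was that of the cytosolic ribosomal median, from 0.14 to -0.07 without 33R. The count therefore does not show that the directions of the lists held. No paired analysis was possible because the labels give the groups no shared replicate numbers.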
